A study of Mus musculus with 8 samples.

Results

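Srrm2, Srrm1 and Son encode proteins of nuclear speckles, and the RNA 5′ ends that CAGE-seq mapped within these 3 genes are described here. Members are the same-strand CAGE clusters whose dominant TSS lay between 500 bp upstream of the gene start and the gene end in GENCODE release M21. There were 76 such clusters of 32857 in E14, 79 of 33005 in clone A1 and 79 of 32870 in clone C7. The genes were chosen by the positions of their clusters in these same data, so the number and place of their clusters are a description and were not tested. CAGE-seq was made from nuclear RNA of mouse embryonic stem cells of the E14 line, in 3 wild-type libraries, 2 libraries of Pwwp2a/b double knockout (DKO) clone A1 and 3 of DKO clone C7, all grown on gelatine in serum and LIF. Each DKO line is 1 clone, so an effect of the deletion and a trait of that clone cannot be told apart within a line. The deposited clusters merge the libraries of a line. No spread between libraries could be calculated, and no difference between lines was tested. A cluster was either present or absent in a line, because the deposited clusters carry no expression value and no read depth.

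Nuclear speckles are bodies between the chromatin that are rich in pre-mRNA splicing factors. SON and SRRM2 are large, mostly disordered proteins that form the scaffold of the speckle. SRRM1 and SRRM2 were first described as partners in a splicing coactivator, and both carry long runs of arginine-serine repeats. RNA polymerase II usually starts at a pyrimidine followed by a purine, with the purine as the first base of the RNA, and CAGE clusters are runs of nearby start sites, each with a dominant TSS, the base with the strongest signal.

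The cells carried clusters at promoters of the pluripotency genes Pou5f1, Nanog, Sox2, Zfp42 and Dppa5a in all 3 lines. Pwwp2a, 1 of the knocked-out genes, had 2 clusters in each line including both DKO clones. Pwwp2b had 0 clusters in each line, the wild type included. The clusters therefore do not check the knockout. Every deposited cluster position was used as given.

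The sequences around the main promoters and the internal sites are shown first because they differ in what precedes the start. Each is on the coding strand, in mm10 coordinates, and was read from the GENCODE transcript with 15 bases before the dominant TSS and 15 from it onwards. The 3 capitals mark the 2 bases before the dominant TSS and, as the third capital, the TSS itself. At the main promoters the TSS of E14 was
Srrm2 promoter, chr17:23803210-23803239, plus strand: cggggtgcgagtgGCGcagtcgaagcccgc
Srrm1 promoter, chr4:135353132-135353161, minus strand: ggtgcacgctgggATAgggagcgatctccg
Son promoter, chr16:91647869-91647898, plus strand: ggactagcgaggaGTAgttgagagaacgga

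Each of these 3 starts has a pyrimidine before a purine, C before G in Srrm2 and T before A in Srrm1 and Son. The dominant TSS of each was at the same base in E14, A1 and C7. The internal sites of the same genes read differently. Examples from coding exons in E14 were
Srrm2 exon 11, chr17:23815550-23815579, plus strand: tgccactaagaggGGAcggtctcgatctag
Srrm2 exon 11, chr17:23816079-23816108, plus strand: gccaggagagggaGGTcccggtctagaacg
Srrm2 exon 12, chr17:23822443-23822472, plus strand: ggctattagagagGGAcgtcctcaggaacc
Srrm1 exon 17, chr4:135322439-135322468, minus strand: agaagaagaagaaGGAcaagaaacacaaga
Srrm1 exon 16, chr4:135324060-135324089, minus strand: agtccgtaagaagGGTttcatcttccagat
Srrm1 exon 15, chr4:135325102-135325131, minus strand: caccaaagcgccgGGTctcccactctccac
Son exon 2, chr16:91651752-91651781, plus strand: aggtcctctctggGGTcttagatacggagc
Son exon 3, chr16:91659266-91659295, plus strand: ggaactagtaaggGGTttgaatttgtcact

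In all 8 of these examples, picked after the sequences were seen, the dominant TSS is the base directly after GG. The example from Srrm1 exon 15 was counted as a promoter cluster, so it is not among the 45 exonic clusters below. Over all internal E14 clusters in exons of the longest coding transcripts, whatever their category, GG preceded 42 of 60 (70.0%). Over the 45 exonic E14 clusters of the 3 genes, 32 had GG at the 2 bases before the dominant TSS, a share of 71.1% with a 95% Wilson interval from 56.6% to 82.3%. The background over exonic E14 clusters of all genes was 64.0%, so the 3 genes lie near the exonic clusters of the series. Among E14 promoter clusters that fall within a RefSeq promoter window, GG preceded the TSS in 5.07%. Among 14787 exonic positions counted in the longest coding transcripts of the 3 genes, it preceded 5.40%. These are not all exonic bases of the transcripts. In Srrm2 6357 were counted, while its exon 11 alone has 6569 bases. GG was looked for on the coding strand only, and a run of GGG was counted as GG. GGG itself stood before 15 of the 45. The intervals cover counting error only, and clusters of 1 gene are not independent of each other.

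By gene, GG preceded 20 of 28 exonic TSSs in Srrm2, 9 of 12 in Srrm1 and 3 of 5 in Son in E14. In A1 the numbers were 18 of 28, 8 of 12 and 3 of 5. In C7 they were 24 of 30, 9 of 12 and 4 of 5. The Wilson intervals of the 3 lines overlap in every gene. The lines share most of these clusters, so the intervals are not independent and their overlap does not compare the lines. Among exonic clusters whose dominant TSS moved from E14, GG was lost at 4 of 13 in A1 and gained at 1. In C7 it was lost at 1 of 10 and gained at 4.

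A pyrimidine-purine step was found at 2 of the 45 exonic E14 TSSs of the 3 genes (4.44%), against a background of 10.5% over all exonic E14 clusters. A TSS directly after G cannot have this step, so its share is limited by the share after GG and is not a separate result. G stood directly before 38 of the 45 (84.4%), and before 72.2% of all exonic E14 TSSs. At promoter clusters within RefSeq windows the step was present in 82.2%, and at the 14787 exonic positions counted in these genes in 21.1%. The 2 exonic sites that had the step were
Srrm2 exon 5, chr17:23809970-23809999, plus strand: cttgttcgagagaCCAgcagttctcgctca
Srrm1 exon 16, chr4:135324016-135324045, minus strand: cctgagccagcagCTAaaaagccgccagca

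No test was made of these shares. Whether the exonic 5′ ends arise by initiation or in library preparation was not tested, so the counts of exonic clusters given here are counts of mapped ends and not of initiation sites.

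**Figure D1:**
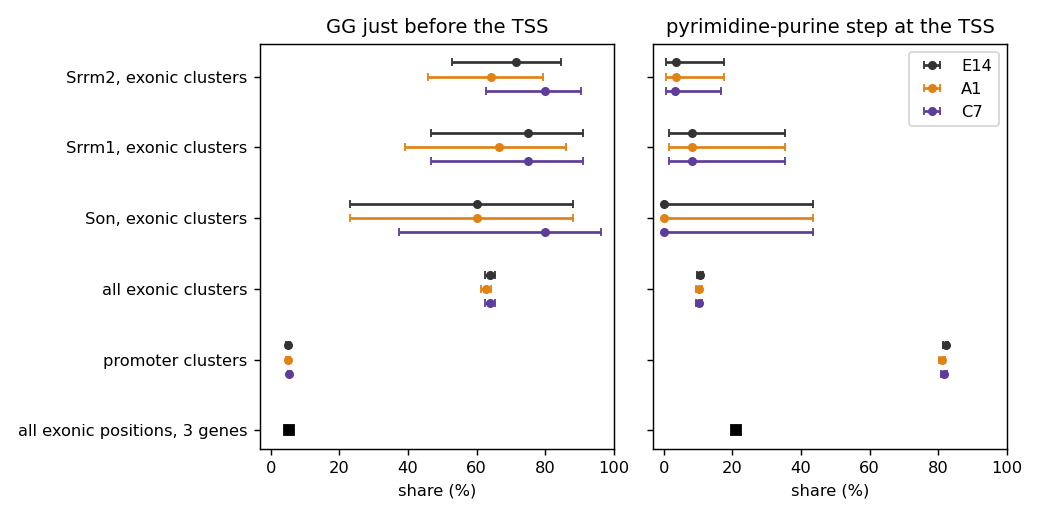
Share of dominant TSSs (%) with GG directly before them (left) and with a pyrimidine-purine step (right), by gene or set (vertical axis) and line (colours), with 95% Wilson intervals. The square, labelled all exonic positions, is the share over the 14787 exonic positions counted in the 3 genes, with no line. The exonic clusters of the 3 genes and of all genes sit at 60.0% or above for GG, while promoter clusters lie near 5.07% and the exonic positions at 5.40%.

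Srrm2, which encodes the largest SR-related protein of the spliceosome, lies on the plus strand of chromosome 17 from 23790532 to 23824741 (ENSMUSG00000039218.17). It held 47 clusters in E14, 50 in A1 and 50 in C7. In E14, 28 of these were exonic, 15 lay within 500 bp of an annotated transcript start and were counted as promoter clusters, and 4 were intronic. A1 had 28 exonic, 17 promoter and 5 intronic clusters, and C7 had 30, 17 and 3. Exonic clusters are found at few genes. Of 11457 protein-coding genes with a cluster in E14, 9853, or 86.0%, had no exonic cluster. Among the 1604 that had one, Srrm2 ranked 5 by their number. By density over its 12.8 kb of annotated exon it had 2.18 exonic clusters per kb in E14 and ranked 53.

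The first Srrm2 cluster lay 12693 bp downstream of the annotated gene start, so none of the 3 lines had a cluster at the upstream starts of Srrm2-202 and Srrm2-206. The cluster nearest the 5′ end lay instead at the start of Srrm2-210, the longest coding transcript with 15 exons and a coding sequence of 8109 bases. The cluster there ran from 23803177 to 23803279, with its dominant TSS at 23803225 and an interquantile width of 37 bp in all 3 lines. The interquantile width is the span between the 0.1 and 0.9 quantiles of the signal in the cluster. A second, broader cluster from 23803620 to 23803683 lay in intron 1, with a width of 57 bp in E14 and 55 bp in both clones. The other clusters of the gene were mostly narrow. The 28 exonic clusters of E14 had a median width of 6 bp, and 12 of them were at most 3 bp wide.

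Of the 15 Srrm2 promoter clusters in E14, 11 were near the start of a non-coding or nonsense-mediated decay transcript only. With coding transcripts alone, 4 promoter clusters remained. Among the E14 clusters of the gene, 36 lay in an exon of Srrm2-210 away from its start, whatever their category, and all 36 were in coding sequence. These were spread over exons 2 to 6 and 10 to 12. Most clusters of the gene were thus in coding sequence, and many of those called promoter shared its exons.

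**Figure D2:**
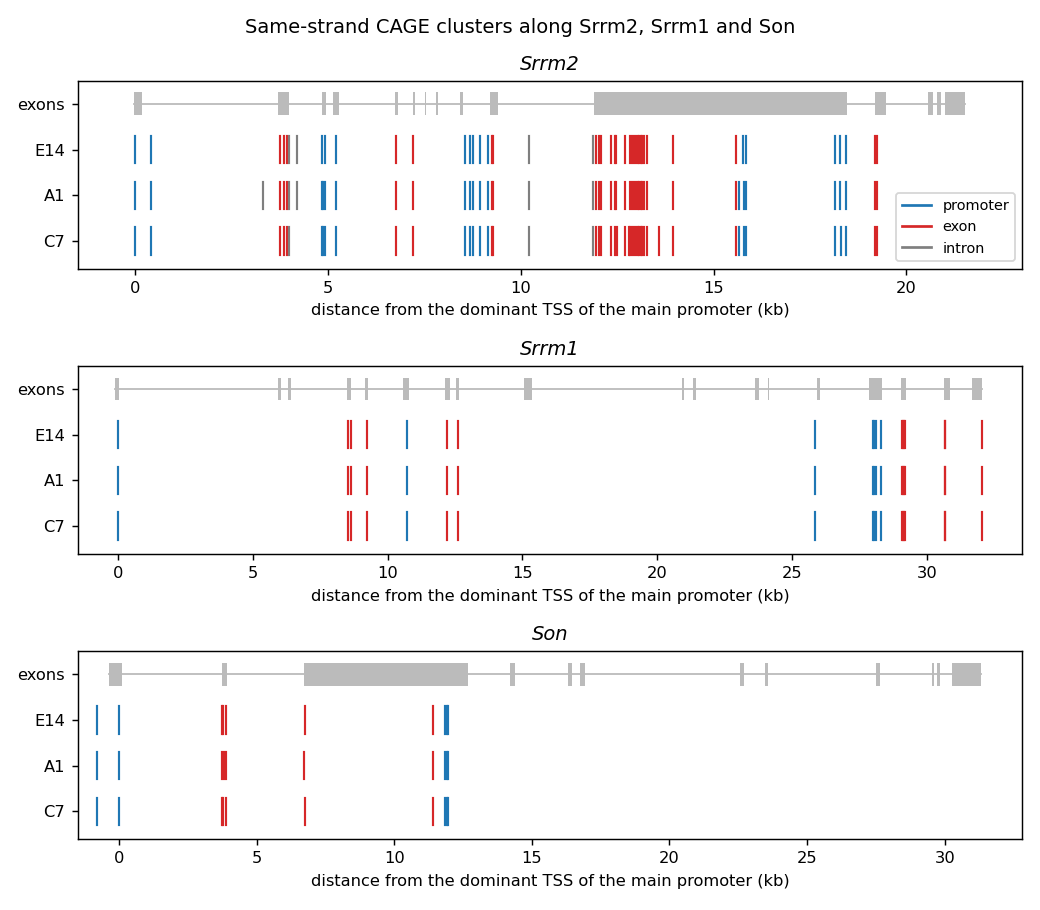
Clusters (vertical ticks at the dominant TSS) along Srrm2, Srrm1 and Son in E14, A1 and C7, against distance from the dominant TSS of the main promoter (kb); grey boxes are exons of the longest coding transcript, and colours give the category. The rows of the 3 lines are nearly alike, Srrm2 ticks crowd in the first part of its 6569-base exon, and Son has none after its long exon.

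Exon 11 of Srrm2, from 23815122 to 23821690, is 6569 bases long and holds most of the coding sequence. E14 had 24 clusters in it, A1 had 25 and C7 had 27. They crowded in the first part of the exon, where many lay from 802 to 1381 bases into it in E14. The first 1500 bases held 17 of the 24 in E14, or 11.3 per kb, and the other 5069 bases held 7, or 1.38 per kb. A1 had 17 and 8, and C7 had 18 and 9. Positions that follow GG were 64.7 per kb in the first stretch and 46.0 per kb in the rest. The length of 1500 bases was picked after the positions had been seen.

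At most 7 E14 clusters lay in any 300 bases of exon 11, and several overlapping stretches reached this number. Among these is chr17:23816038-23816337 on the plus strand. Capitals mark, for each of the 7 E14 clusters there, the dominant TSS and the 2 bases before it:
Srrm2 exon 11: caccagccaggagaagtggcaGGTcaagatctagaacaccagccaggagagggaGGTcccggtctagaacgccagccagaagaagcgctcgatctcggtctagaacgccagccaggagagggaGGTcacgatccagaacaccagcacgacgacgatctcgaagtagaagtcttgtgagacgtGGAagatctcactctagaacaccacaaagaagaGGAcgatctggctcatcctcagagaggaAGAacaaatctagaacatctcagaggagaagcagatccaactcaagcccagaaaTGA

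These TSSs fall between codons 656 and 748 of Srrm2-210. The stretch from 23816038 repeats near-identical units, and the same 15 bases, gccaggagagggaGG, precede the TSS at 2 of its 7 clusters. Of the 28 exonic E14 clusters of the gene, 13 started at the first base of a codon, 6 at the second and 9 at the third. In 7 of the 13, the codon just before the TSS was AGG, an arginine codon. The widest exonic cluster of the gene, from 23816408 to 23816479, had a width of 66 bp in all 3 lines and its dominant TSS at 23816409, near the upstream end of the cluster.

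Clusters of Srrm2 were close to each other. Of the 46 gaps between neighbours in E14, 22 were at most 100 bp and the median was 104 bp. The smallest gap was 21 bp, as in Srrm1, and it was 23 bp in Son. The authors joined nearby same-strand start sites into clusters, so the smallest gap depends on that step as well. A few clusters stood at exon boundaries. The cluster from 23808066 to 23808067 began at the first base of exon 3, and that from 23822414 to 23822415 at the second base of exon 12 in E14. In the transcript, bases before these TSSs belong to the exon upstream. Just outside the gene, a cluster from 23824820 to 23824821 lay 80 bp beyond the annotated end in all 3 lines and was not counted.

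Srrm1, which encodes the other subunit of that splicing coactivator, lies on the minus strand of chromosome 4 from 135320484 to 135353321 (ENSMUSG00000028809.16). It held 19 clusters in each line, of which 12 were exonic and 7 were promoter clusters. Its exonic clusters had a density of 1.64 per kb in each line. In E14 it ranked 39 by their number and 103 by their density. The cluster at its main promoter ran from 135353119 to 135353294, with its dominant TSS at 135353146 and a width of 49 bp in E14, 50 bp in A1 and 51 bp in C7. All other Srrm1 clusters were narrower than this one, and the exonic ones reached at most 28 bp in each line.

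Srrm1 has no exon as long as those of Srrm2 and Son. Its longest coding transcript, Srrm1-208, has 18 exons, and the longest of them, exon 15, has 462 bases. Exons 15 and 16 held 4 clusters each in every line, and exons 4 and 17 held 2 each. The 4 clusters of exon 15 were counted as promoter clusters only because a retained-intron transcript starts nearby. In E14, 16 clusters lay in exons of Srrm1-208 away from its start and all 16 were in coding sequence. The widest gap between neighbouring clusters, 13247 bp in each line, ran from exon 8 to a cluster near the start of the short coding transcript Srrm1-211.

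Son, which encodes the DNA- and RNA-binding scaffold of the speckle core, lies on the plus strand of chromosome 16 from 91647506 to 91679221 (ENSMUSG00000022961.18). It held 10 clusters in each line, 5 exonic and 5 promoter clusters. The main cluster, from 91647845 to 91647947, had its dominant TSS at 91647884 and a width of 36 bp in E14 and A1 and 35 bp in C7. A second, from 91647045 to 91647098, lay 408 bp upstream of the annotated gene start. All 3 lines placed its dominant TSS at 91647098. Its width was 54 bp in E14 and 36 bp in both clones. It is the member closest to the upstream limit of 500 bp, and with a window that began at the gene start it was not counted.

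Of the 3 genes Son had the fewest exonic clusters for its length. It had 0.335 exonic clusters per kb in each line. In E14 it ranked 155 by their number and 698 by their density. Exon 3, from 91654611 to 91660580, has 5970 bases and held 5 clusters in each line, 1 in its first 1500 bases and 4 in the rest. In the same first stretch, positions that follow GG were 64.0 per kb in Son and 64.7 per kb in Srrm2 exon 11. Clusters in that stretch were 0.667 per kb in Son and 11.3 per kb in Srrm2 in E14. The length of 1500 bases was picked from the Srrm2 positions, so this contrast is not a neutral one. Over the whole exons E14 had 0.838 clusters per kb in Son and 3.65 in Srrm2. Past the first 1500 bases the densities were 0.895 and 1.38 per kb. What sets this difference was not tested. Exact repeats within the exons were rare at the length of a read, and near-identical copies were not counted. Of the start positions in Son exon 3, 0.335% gave a run of 77 bases that recurs in the same transcript, and in Srrm2 exon 11 none of 6569 did. Repeats elsewhere in the genome were not examined.

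Exon 2 of Son held 3 further clusters. In exon 3, the 3 clusters between 91659705 and 91659835 were counted as promoter clusters because the nonsense-mediated decay transcript Son-212 starts at 91659943. No cluster lay downstream of 91659835 in any line, which leaves the last 9 of its 12 exons without one. Downstream, the nearest same-strand cluster was 50140 bp beyond the gene end.

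**Figure D3:**
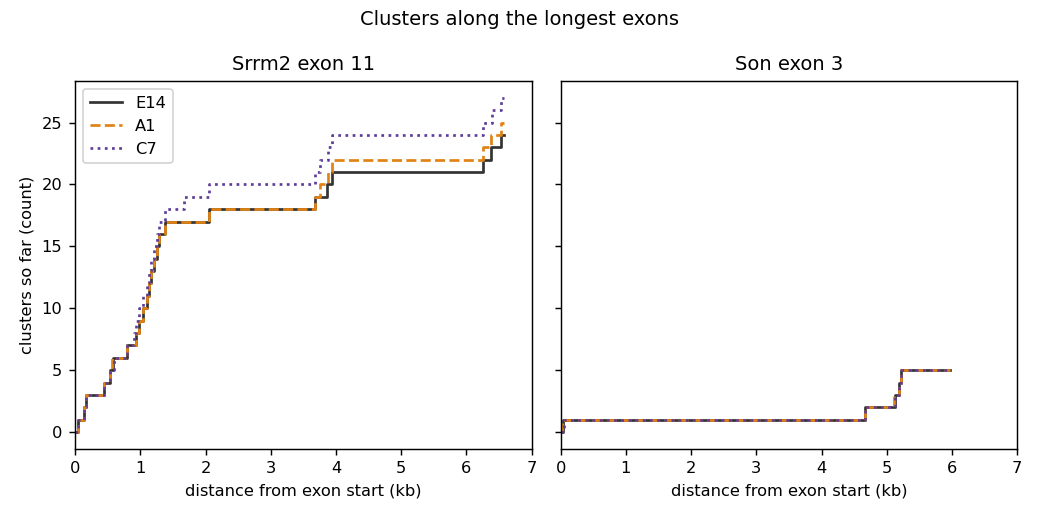
Running count of clusters (vertical axis) against distance from the start of the exon (kb) in Srrm2 exon 11 and Son exon 3, for E14, A1 and C7. In Srrm2 the count reached 17 within 1.5 kb in E14 and A1 and 18 in C7, while in Son it stood at 1 there and ended at 5 in all 3 lines.

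Mki67, Akap12 and Ankrd11, picked with their counts known, are genes with many exonic clusters and give the scale. Mki67, a marker of proliferating cells, had 52 exonic clusters in E14 and 53 in each clone. Akap12, a scaffold for protein kinase A, had 43 in each line. Ankrd11, a chromatin regulator, had 36 in E14, against 38 and 37 in clones A1 and C7. Srrm2 at 28 is below all of these, but its 2.18 per kb is close to the 2.17 per kb of Ankrd11.

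Other genes of nuclear speckles and of the splicing machinery were taken from a list of 32. All 32 had clusters in E14. No exonic cluster was present at 12 of them (37.5%), against 86.0% of coding genes with clusters. The list was drawn up with earlier results of these data known. It was not matched to the other coding genes for expression or exon length, so the contrast is not a measured trait of speckle genes. The exonic clusters numbered 111 in E14 and 112 in each clone. The median was 2 per gene. The 5 genes with the most in E14 were Rbm25 with 22, Ppig with 15, Pnn with 12, Bclaf1 with 8 and Nktr with 6, where Nktr shares its number with Prpf4b and Srsf5 and comes first by name. Rbm25 is a splicing regulator, Ppig and Nktr are cyclophilins with arginine-serine domains, Pnn is a component of the exon junction periphery and Bclaf1 is an RNA-processing factor. Each of the 5 had the same number in A1 and C7. GG preceded the TSS in 68 of the 111 exonic clusters of the list (61.3%).

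The lines were compared next, to ask whether the DKO clones had clusters that the wild type lacked. Clusters were matched by an overlap of at least 1 bp on the same strand. All 76 E14 clusters of the 3 genes were found in A1, against a background of 0.709% of all E14 clusters without a match there. All but 1 were found in C7, where the background without a match was 0.749%. The bounds of matched clusters were the same to the base in 75 of 76 pairs with A1 and in 75 of 75 with C7. Whether clusters were called separately in each line is not known. The sharing is therefore not a measure of independent agreement between lines. Of the 79 clusters of A1, 3 had no match in E14 (3.80%), and the background was 1.11%. Of the 79 of C7, 4 had none (5.06%), and the background was 0.776%. All of these differences were in Srrm2. The 19 clusters of Srrm1 and the 10 of Son were found in all 3 lines. Counts of this size were not tested.

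The clusters present in both clones and absent from E14 numbered 2, of 79 in A1, against a background of 0.448% of all A1 clusters. Both lay in Srrm2 and were 1 bp and 15 bp wide. One was at a single base of exon 3, and the other ran from 23818866 to 23818880 in exon 11. Both lay within 500 bp of an annotated transcript start and were counted as promoter clusters, so neither is an exonic cluster here. In C7 alone, 2 further single-base clusters lay in exon 11, at 23816025 and 23816798. Of all exonic E14 clusters, 64.0% follow GG, so this share is not particular to these sites. Sequence was not read for intronic sites. All 4 of these sites in exons follow GG:
Srrm2 exon 3, A1 and C7, chr17:23808074-23808103, plus strand: aacagcaaattcaGGAaaaagtggcgacct
Srrm2 exon 11, A1 and C7, chr17:23818865-23818894, plus strand: gcatagtagatcaGGTtcatcaagcaaaga
Srrm2 exon 11, C7, chr17:23816010-23816039, plus strand: aggagaagtggtaGGTctaggtccagaaca
Srrm2 exon 11, C7, chr17:23816783-23816812, plus strand: gatatcaccaagaGGAagaagccattctag

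A1 alone had a single-base cluster at 23806526, in an intron of Srrm2. The 1 E14 cluster with no match in C7 was an intronic cluster of 2 bp from 23807413 to 23807414, which A1 also had. Of these 6 sites, 4 were a single base wide. A cluster is absent where its signal did not reach the minimum used to call it, so an absent cluster can hold reads.

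Within the shared clusters, the position with the most signal was compared between lines. From E14 to A1 the dominant TSS moved in 20 of 76 clusters (26.3%), and the background over all paired clusters was 23.8%. From E14 to C7 it moved in 16 of 75 (21.3%), and the background was 21.1%. For exonic clusters alone the numbers were 13 of 45 in A1, with a background of 25.4%, and 10 of 45 in C7, with a background of 22.9%. Both totals are near the background. The moves went downstream in 11 and upstream in 9 clusters in A1, and downstream in 9 and upstream in 7 in C7.

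Of the 75 clusters present in all 3 lines, 51 had the same dominant TSS in each. The other 24 (32.0%) moved in 1 or both clones, and the background over all clusters paired in the 3 lines was 33.7%. The comparisons with A1 and C7 share the E14 clusters. By gene, 6 of 10 clusters moved in Son, 15 of 46 in Srrm2 and 3 of 19 in Srrm1, which are small numbers and were not tested. The largest move shared by both clones was in exon 11 of Srrm2. There the dominant TSS of the cluster from 23818977 to 23819002 stood at its first base in E14, at 23819002 in A1 and at 23819001 in C7, 25 bp and 24 bp downstream. The width was 26 bp in each line.

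Other moves differed between the clones. In the cluster of exon 11 from 23815685 to 23815719, the dominant TSS lay at 23815703 in E14, at the first base of the cluster in A1 and at its last base in C7. Only the last of these follows GG:
Srrm2 exon 11, E14, chr17:23815688-23815717, plus strand: aaggtctcctcagAGGccaggttggtccag
Srrm2 exon 11, A1, chr17:23815670-23815699, plus strand: ccagaggcgtggcCGTtcaaggtctcctca
Srrm2 exon 11, C7, chr17:23815704-23815733, plus strand: ccaggttggtccaGGAgcagaaatacccag

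At the start of Son exon 3, the cluster from 91654624 to 91654689 peaked at 91654644 in E14, 19 bp upstream of that base in A1 and 10 bp downstream of it in C7. Its width was 49 bp in E14 and C7 and 65 bp in A1. The first cluster of Son exon 2 had its dominant TSS 5 bp upstream in both clones. In Srrm1 the largest move was 7 bp, in C7, within the cluster from 135322475 to 135322500 of exon 17, where A1 moved by 1 bp.

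**Figure D4:**
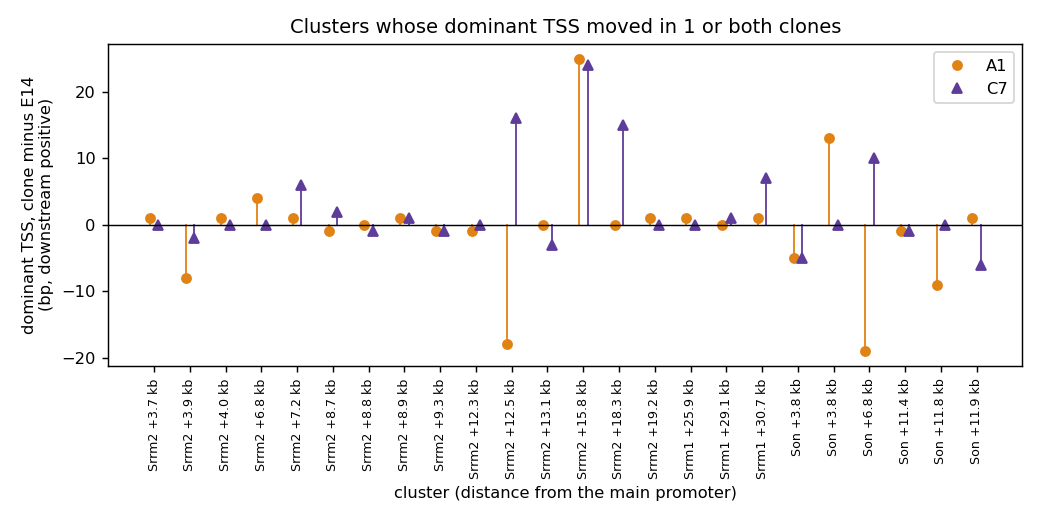
Distance in bp from the dominant TSS of E14 to that of A1 (circles) and C7 (triangles), downstream positive, for the 24 shared clusters that moved in 1 or both clones, named by gene and distance from the main promoter. Most moves are a few bp, the largest shared one is 25 bp and 24 bp downstream in Srrm2 and the largest in the other direction is 19 bp upstream, in A1 at Son.

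Interquantile widths changed in 21 of 76 clusters from E14 to A1 (27.6%), where the background was 30.8%, and in 17 of 75 to C7 (22.7%), where it was 29.1%. Of the 75 clusters of all lines, 27 (36.0%) changed width in 1 or both clones, and the background was 40.5%. In Srrm2, the cluster from 23811871 to 23811916 was 29 bp wide in E14, 45 bp in A1 and 44 bp in C7. The cluster of exon 12 from 23822443 to 23822470 went the other way, with 28 bp, 25 bp and 17 bp. In Srrm1, the cluster of exon 15 from 135324832 to 135324853 was 3 bp wide in E14, 21 bp in A1 and 22 bp in C7, with its dominant TSS at 135324833 in each. The cluster of exon 5 from 135343915 to 135343941 was 8 bp in E14 and A1 and 27 bp in C7. In all 4 of these clusters, as in nearly all pairs, the deposited bounds were the same in each line, so the width changed within fixed ends.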

How the data were processed

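Nuclear RNA CAGE-seq libraries (3 E14, 2 A1, 3 C7) were made without PCR and read as 80-base single ends. The authors mapped reads to mm10 with STAR 2.4.2a, kept unique alignments, and merged the replicates of a line. CAGEr was then used by them for power-law normalisation and to join start sites into tag clusters. The processing notes also name SAMtools 1.3 and bedtools 2.17.0. The deposited positions are the start, end, dominant TSS and interquantile blocks of each cluster. Every deposited score is 0 and was not used. Depth per library is not given in the deposited clusters.

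Clusters were assigned by dominant TSS with Python 3.11.15, in the order promoter (within 500 bp of a transcript start), exon, intron. SciPy 1.17.1 gave Wilson intervals and Matplotlib 3.10.9 the figures. Functions were tested on simulated clusters. Exon sequence came from GENCODE M21 transcripts, and promoter windows from RefSeq (GRCm38.p6), which held 8772 of 19872 E14 promoter clusters, so the promoter shares describe those 8772 only. The named genes were the 3 members, 3 comparison genes and the 5 listed speckle genes with the most exonic clusters. Single clusters were described where they were absent from a line, differed between lines, were the widest or marked the main promoter. The members and lists were chosen with earlier results of these data known. The counting of GG was added after the sequences had been seen.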

Additional observations from a re-analysis of the deposited data

Results flagged for a closer look

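Clusters on the opposite strand within the gene windows were outside the comparisons above. Srrm2 had 9 of these in E14, 8 in A1 and 9 in C7, of which 8 in each line had their dominant TSS within 100 bp of that of a sense cluster. Son had 4 in each line, of which 1 in E14, 0 in A1 and 1 in C7 lay that close. The totals of Srrm2 and Son are above the 3 that a count of 0 allows, which is why they are listed. Srrm1 had 1 in each line, also within 100 bp. Sense clusters of Srrm2 are close to each other, and no background share was calculated for this distance.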

How the results depend on the processing

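Where 3 values follow each other they belong to E14, A1 and C7. With interquantile widths of at least 3 bp, Srrm2 had 29, 32 and 29 clusters and Srrm1 12, 12 and 12. Exonic Srrm2 clusters were then 18 in E14 and 17 in C7, Srrm2 promoter clusters 11 in each clone, Srrm2 intronic clusters 1, 1 and 1 and Srrm1 promoter clusters 4, 4 and 4. With a promoter window of 100 bp, promoter clusters were 6, 7 and 7 in Srrm2, 4, 4 and 4 in Srrm1 and 1, 1 and 1 in Son, exonic Son clusters 8, 8 and 8 (0.537 per kb in each line), and intronic Srrm2 clusters 5 in C7. With 1000 bp, promoter clusters were 25, 27 and 26 in Srrm2 and 11, 11 and 11 in Srrm1, and intronic Srrm2 clusters 2 in E14 and 3 in A1. With protein-coding transcripts only, promoter clusters were 4, 5 and 5 in Srrm2, 2, 2 and 2 in Srrm1 and 2, 2 and 2 in Son, intronic Srrm2 clusters 9, 10 and 8, and exonic Son clusters 8, 8 and 8. Srrm1 had 2.93 exonic clusters per kb of coding-transcript exon in each line. Shared clusters at least 3 bp wide were 50 from E14 to A1, 49 from E14 to C7 and 50 from A1 to C7. Moves of over 5 bp numbered 6, 7 and 8 for these pairs, and width changes of over 5 bp 6, 5 and 5. CA alone stood at 2.22%, 0% and 2.13% of exonic TSSs (1 of 45, 0 of 45 and 1 of 47), and GGG before 33.3%, 28.9% and 31.9%. Of the alternatives, 164 values stayed within 1.5 times the main value and 73 did not.

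No paired analysis was possible because the deposited clusters merge the replicates of each line, and for the same reason no replicate was left out. The threshold applied in calling clusters is not given in the sources used here, so depth and presence cannot be told apart.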
